A study of Mus musculus with 4 samples.

Results

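Endogenous retroviruses in mouse embryonic stem cells (mESCs) are kept silent by a chain of chromatin proteins, and the RNA of 10 genes of that machinery was followed here in WT mESCs and in mESCs labelled *Spen* KO. The genes were taken by name, by their place in this pathway, with no threshold on their values, though the set was drawn up when earlier results of these data were known: *Trim28*, *Setdb1*, *Atf7ip*, *Zfp809*, *Mphosph8*, *Pphln1*, *Chaf1a*, *Chaf1b*, *Atrx* and *Daxx*. The count table held all 10 among its 37310 genes, and because *Atf7ip* has 2 gene identifiers they gave 11 entries, all of which were among the 17710 genes with an adjusted p. One group was the HATX WT line and the other was HATX *Spen* KO clone 2, each with 2 libraries labelled replicate 1 and replicate 2. Both have a mixed genomic background, both were grown in serum with LIF on gelatin, and no treatment is named for either. The study describes the cells as haploid and as carrying a doxycycline-inducible *Xist* transgene in both groups. It describes the KO as a deletion of *Spen*, which encodes an RNA-binding repressor protein. Each group is therefore 1 line, and clone and genotype cannot be told apart.

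In this pathway a KRAB zinc finger protein such as Zfp809 binds a retroviral sequence and brings in the scaffold Trim28, also called Kap1. Trim28 recruits the methyltransferase Setdb1, which trimethylates histone H3 at lysine 9 (H3K9me3) and is held in the nucleus and stabilised by its partner Atf7ip. The HUSH complex, with Mphosph8 as its reader of H3K9 methylation and Pphln1 as another core subunit, works with Setdb1. Chaf1a and Chaf1b are subunits of CAF-1, which deposits histones behind the replication fork, and Atrx with Daxx deposits the histone variant H3.3 at silent repeats.

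Before the members were compared, the labels were checked. The marker genes of mESCs had summed levels of 214090 to 247470 normalized counts (counts divided by a library's DESeq2 size factor), and *Pou5f1*, *Nanog*, *Sox2*, *Esrrb* and *Klf4* did not pass an adjusted p of 0.05. The other 3 of the 8 markers were higher in the KO-labelled libraries (DESeq2): *Tcfcp2l1* (log2 fold change 0.52, adjusted p = 1.31e-12), *Dppa5a* (0.28, 0.000177) and *Zfp42* (0.23, 0.0149). At that threshold 16.4% of all genes tested were higher, as were 29.8% of genes averaging 1000 or more normalized counts. All 8 markers lay in that range. *Spen* itself had 3716 and 3047 normalized counts in WT replicates 1 and 2, and 7797 and 6242 in the KO-labelled replicates. Its level was thus higher in both libraries labelled KO (log2 fold change 1.05 ± 0.21, SE; DESeq2 adjusted p = 7.7e-06), and a gene total does not show which exons the reads came from. The label is kept below as "KO-labelled". Total counts ran from 36667685 to 61908422 per library. Replicates differed by more than sampling noise, with a chi-square per degree of freedom of 36.9 for the WT pair and 14.3 for the KO-labelled pair. Nothing in the labels says that replicates were separate cultures, so p-values measure the spread between these libraries, which may be technical.

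*Setdb1*, *Atf7ip* and *Zfp809* stood highest in fold change, and the sequences at their starts are shown because these 3 members had the largest changes. The windows are those of RefSeq on build GRCm38.p6, from 250 bases before to 50 after an annotated start, and capitals mark the matches to 5 short motifs searched on both strands. These were the CCAAT box (CCAAT), the GC box (GGGCGG), an ETS core (CCGGAAG), a YY1 core (AAGATGG) and an E2F core (TTCCCGC). The *Setdb1* window lies at chr3:95357153-95357452 on the minus strand, that of *Atf7ip* at chr6:136518601-136518900 on the plus strand, and the first of 2 for *Zfp809* at chr9:22225453-22225752 on the plus strand.
Setdb1: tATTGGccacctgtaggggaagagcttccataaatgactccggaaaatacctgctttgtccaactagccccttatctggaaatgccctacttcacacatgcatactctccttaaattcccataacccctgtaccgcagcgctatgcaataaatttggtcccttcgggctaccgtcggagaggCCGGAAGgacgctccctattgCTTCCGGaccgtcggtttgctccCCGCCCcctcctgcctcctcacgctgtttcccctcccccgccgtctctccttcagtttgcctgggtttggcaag
Atf7ip: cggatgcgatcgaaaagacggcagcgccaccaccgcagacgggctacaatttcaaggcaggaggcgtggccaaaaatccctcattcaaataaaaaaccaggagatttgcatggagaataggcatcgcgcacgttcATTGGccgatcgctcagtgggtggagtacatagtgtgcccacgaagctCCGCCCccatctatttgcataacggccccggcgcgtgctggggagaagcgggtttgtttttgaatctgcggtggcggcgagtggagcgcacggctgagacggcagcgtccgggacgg
Zfp809: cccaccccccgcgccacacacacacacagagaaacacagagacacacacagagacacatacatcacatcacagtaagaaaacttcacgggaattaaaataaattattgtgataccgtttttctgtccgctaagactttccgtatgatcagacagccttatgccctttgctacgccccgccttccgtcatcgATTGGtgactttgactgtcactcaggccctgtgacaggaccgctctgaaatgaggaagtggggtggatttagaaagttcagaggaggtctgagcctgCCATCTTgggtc
No capitals overlap between motifs in these windows. All 3 hold 1 CCAAT box, a motif found in 37.4% of 32851 windows of this length. The *Setdb1* and *Atf7ip* windows each hold 1 GC box (35.7% of windows), *Setdb1* holds 2 ETS cores (8.86%), and *Zfp809* holds 1 YY1 core (6.34%). The E2F core, present in 4.6% of windows, was found in the windows of *Trim28*, *Chaf1a* and *Chaf1b*, with 1, 1 and 2 matches. CpG content differed widely between members, from 11 CpG dinucleotides in the *Zfp809* and *Atrx* windows to 53 in the first of the 2 *Pphln1* windows, against a median of 7 over all windows. A match is a description of letters and says nothing of a factor bound there.

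The level of each gene was first placed within the WT cells, on a per-length scale (counts per kilobase of exon, scaled to a sum of 1e+06 in each library). *Trim28* stood far above the rest, at 413 and 467 in WT replicates 1 and 2. *Atrx* came next at 58.0 ± 0.8 (SD, n = 2), 7.58-fold below *Trim28*. *Setdb1* at 47.7 ± 1.9 and *Daxx* at 46.4 ± 1.5 had overlapping values and cannot be ordered. *Chaf1b* (40.8 and 40.4 in WT replicates 1 and 2) and *Mphosph8* (32.1 and 31.9) followed. The levels of *Zfp809* (27.2 ± 1.0) and *Chaf1a* (26.1 ± 4.7) overlapped, as did those of the first *Atf7ip* identifier (17.9 ± 2.4) and *Pphln1* (16.7 ± 1.2). The second *Atf7ip* identifier was lowest at 8.81 ± 1.32. The scaffold was thus the most abundant RNA of the set, and the 2 CAF-1 subunits were not at 1 level. With the longest transcript as the length in place of all exonic bases, *Chaf1b* came to 64.5, above *Setdb1* at 52.0 and *Daxx* at 47.7, so its place in the order depends on the length used. The per-length scale is set by all RNAs of a library and moved between groups by a median log2 ratio of 0.31 over 13726 genes, so it is not used to compare WT with KO-labelled cells.

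**Figure D1:**
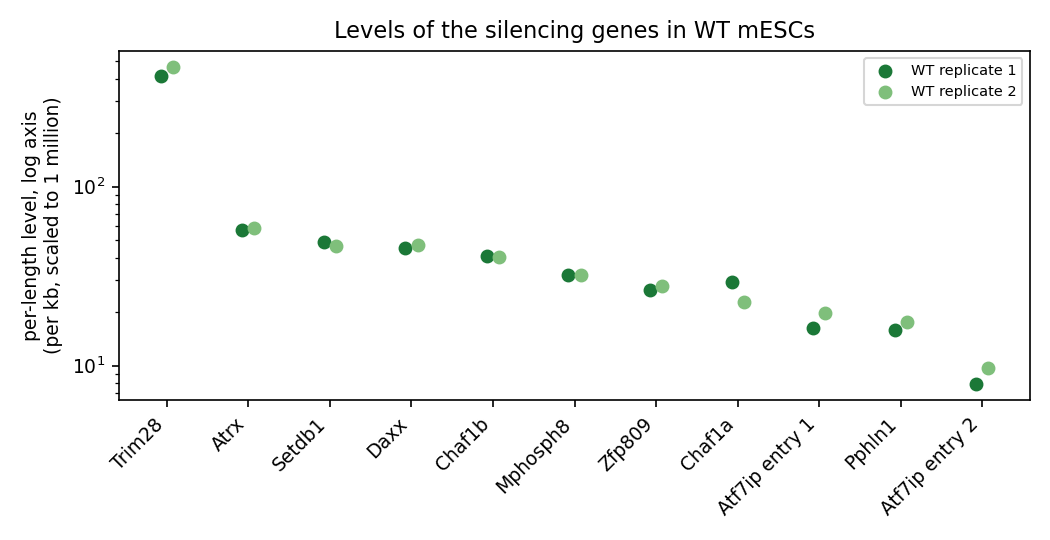
Per-length level (counts per kilobase of exon, scaled to a sum of 1e+06 per library, log axis) of the 11 entries in the 2 WT libraries, one point per library. *Trim28* lies above all others, and the second *Atf7ip* identifier (entry 2) is the lowest.

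Against this WT background, 6 of the 10 members were higher in the KO-labelled libraries at a DESeq2 adjusted p under 0.05: *Setdb1*, *Atf7ip*, *Zfp809*, *Mphosph8*, *Trim28* and *Atrx*. Of all genes tested, 16.4% were higher by the same rule. The share depends on level, however: among the 6988 genes whose mean normalized count reached 1000, a range that holds 10 of the 11 entries, 29.8% were higher and 19.2% lower. No member was lower by DESeq2 (15.8% of all genes were), with *Chaf1b* alone at an unadjusted p under 0.05 and none by edgeR. None passed the study's threshold of a 2-fold change with an adjusted p under 0.001, by DESeq2 or edgeR. By DESeq2 4.51% of all genes received that call, and 2.42% of those whose mean reached 1000. The median log2 fold change over the 11 entries was 0.25, with 9 above 0 and 2 below, beside a median of 0.005 over all genes tested and 0.07 over those whose mean reached 1000. The largest change was 1.45-fold, and RNA per cell and the share of cells expressing a gene cannot be told apart in bulk libraries.

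**Figure D2:**
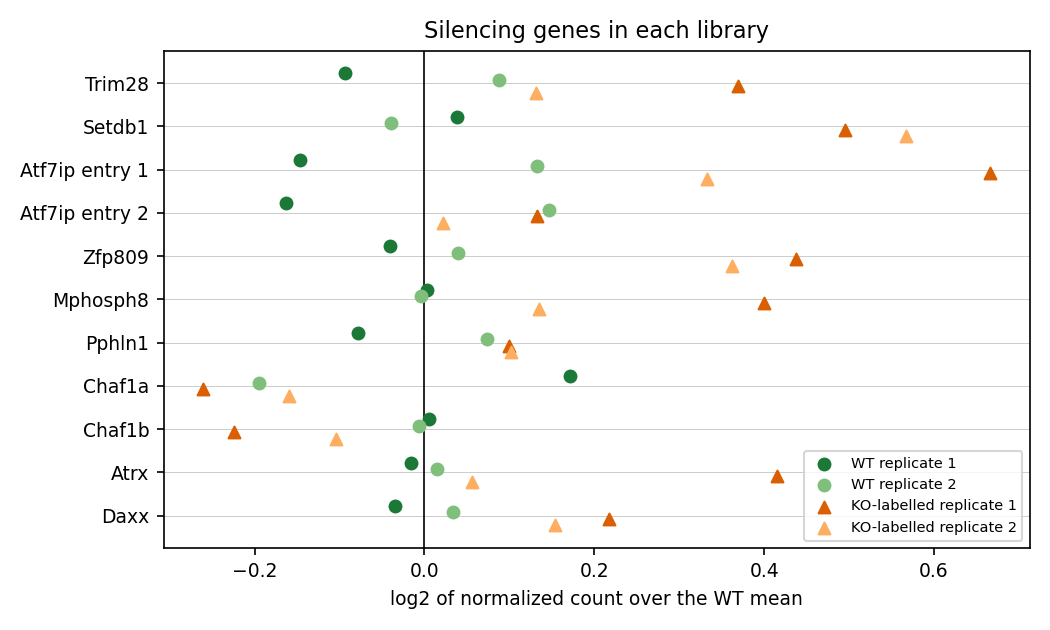
Log2 of the normalized count of each library over the WT mean of the gene, with circles for WT and triangles for KO-labelled libraries. Both triangles of *Setdb1* lie far to the right of its WT circles, while for *Atrx* and *Trim28* KO-labelled replicate 1 lies well beyond replicate 2.

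The first step of the pathway, recognition of the retroviral sequence, was represented by *Zfp809* (mm9 chr9:22030274-22047641, plus strand). Its normalized counts were 996 and 1053 in WT and 1388 and 1317 in KO-labelled replicates 1 and 2. Replicates lay close together and the groups did not overlap. The mean rose from 1024 ± 41 to 1353 ± 50 (SD, n = 2), or by 0.40 ± 0.12 on the log2 scale (SE; 95% interval 0.17 to 0.63; DESeq2 adjusted p = 0.00268). The call was lost without WT replicate 1 (adjusted p = 0.0939), KO-labelled replicate 1 (0.118) or KO-labelled replicate 2 (0.0509), at log2 fold changes of 0.37 to 0.44. In *Zfp809*, 5.99% of exonic bases lie in stretches with a near-identical copy elsewhere, so part of its reads could be assigned to another locus.

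*Trim28*, the scaffold between zinc finger protein and enzyme (mm9 chr7:13609501-13616384, plus strand), had 48880 and 55426 normalized counts in WT and 67361 and 57119 in KO-labelled replicates. The lower KO-labelled library was close to the higher WT library, though the groups did not overlap. Its log2 fold change was 0.26 ± 0.09 (SE; 95% interval 0.09 to 0.42; DESeq2 adjusted p = 0.0129). Without KO-labelled replicate 1 the fold change fell to 0.14 (adjusted p = 0.35), and without WT replicate 1 to 0.17 (adjusted p = 0.269).

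*Setdb1*, the H3K9 methyltransferase (mm9 chr3:95127447-95161124, minus strand), showed the largest change of the set. Its normalized counts were 9834 and 9322 in WT and 13503 and 14191 in KO-labelled replicates 1 and 2. Both KO-labelled libraries were far above both WT libraries, and replicates of a group lay close together. The mean rose from 9578 ± 362 to 13847 ± 487 (SD, n = 2), which is 44.6% higher (log2 fold change 0.53 ± 0.07, SE; 95% interval 0.39 to 0.67; DESeq2 adjusted p = 1.23e-12). It lay at percentile 88.0 of the fold changes of all genes tested. It was the one member past the threshold under every setting tried, with log2 fold changes of 0.44 to 0.58 and adjusted p no higher than 8.22e-05. Near-identical copies cover 15.7% of its exonic bases. Its exons share 0.934% of their bases with *Lass2* on the other strand, whose own log2 fold change was -0.15 (DESeq2 adjusted p = 0.273).

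*Atf7ip*, the partner that stabilises Setdb1, is split in the annotation used for counting. The first identifier (ENSMUSG00000030213.6, mm9 chr6:136467372-136555898, plus strand) had 2150 and 2608 normalized counts in WT and 3776 and 2997 in KO-labelled replicates. The groups did not overlap, and KO-labelled replicate 1 was the highest. The log2 fold change was 0.51 ± 0.12 (SE; 95% interval 0.27 to 0.75; DESeq2 adjusted p = 0.000188), and without KO-labelled replicate 1 it was 0.34 (adjusted p = 0.086). The second identifier (ENSMUSG00000053935.6, mm9 chr6:136556350-136559373, plus strand) lies directly downstream with a single exonic stretch of 3024 bases, 21.3% of it with near-identical copies. It had 697 and 865 normalized counts in WT and 856 and 793 in KO-labelled replicates. Its groups overlapped, and its log2 fold change of 0.08 ± 0.15 (SE; 95% interval -0.21 to 0.36) did not pass the test (DESeq2 adjusted p = 0.761). Whether the 2 stretches changed to different degrees was not tested. With both summed, a setting chosen after seeing the data, *Atf7ip* had 2848 and 3473 normalized counts in WT and 4632 and 3790 in KO-labelled replicates, for a log2 fold change of 0.41 ± 0.11 (SE; DESeq2 adjusted p = 0.00156).

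The HUSH subunits gave smaller values. *Mphosph8* (mm9 chr14:57287085-57316267, plus strand) had 3372 and 3355 normalized counts in WT and 4437 and 3694 in KO-labelled replicates. Its WT libraries were nearly equal, whereas the KO-labelled ones lay far apart, both above WT. The log2 fold change was 0.27 ± 0.10 (SE; 95% interval 0.08 to 0.47; DESeq2 adjusted p = 0.0195). The call was lost without WT replicate 1 (adjusted p = 0.126), WT replicate 2 (0.147) or KO-labelled replicate 1, where the fold change was 0.14 (0.442). *Gm16973* on the other strand covers 10.7% of its exonic bases and had a log2 fold change of 0.66 (DESeq2 adjusted p = 0.0292), and the strand setting of the counting is not given in the sources used here. *Pphln1* (mm9 chr15:93228781-93322344, plus strand) had 1978 and 2199 normalized counts in WT and 2239 and 2241 in KO-labelled replicates. The KO-labelled values were just above the higher WT value. Its log2 fold change of 0.10 ± 0.10 (SE; 95% interval -0.09 to 0.29) did not pass (DESeq2 adjusted p = 0.494), and near-identical copies cover 32.2% of its exonic bases.

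CAF-1 subunits were the 2 members with negative values. *Chaf1a* (mm9 chr17:56179827-56206973, plus strand) had 2454 and 1904 normalized counts in WT and 1819 and 1951 in KO-labelled replicates. WT replicate 2 lay within the KO-labelled range, so the groups overlapped. Its log2 fold change was -0.21 ± 0.12 (SE; 95% interval -0.44 to 0.03; DESeq2 adjusted p = 0.195), moving to -0.38 without WT replicate 2 (adjusted p = 0.0354) and to -0.01 without WT replicate 1 (adjusted p = 0.977). *Chaf1b* (mm9 chr16:93884146-93906360, plus strand) had 5969 and 5920 normalized counts in WT and 5089 and 5530 in KO-labelled replicates. Both KO-labelled libraries were below WT, by a log2 fold change of -0.16 ± 0.08 (SE; 95% interval -0.32 to -0.01; unadjusted p = 0.0376, DESeq2 adjusted p = 0.1). No change of either subunit was thus called.

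The H3.3 chaperones were also measured on either side of the threshold. *Atrx* (mm9 chrX:102992954-103124736, minus strand) had 25564 and 26112 normalized counts in WT and 34444 and 26856 in KO-labelled replicates. KO-labelled replicate 2 was barely above WT, and replicate 1 was far above. The log2 fold change of 0.25 ± 0.10 (SE; 95% interval 0.06 to 0.43; DESeq2 adjusted p = 0.033) was 0.06 without KO-labelled replicate 1 (adjusted p = 0.68). It was 0.24 without WT replicate 1 (0.628) and 0.27 without WT replicate 2 (0.607), and the call was also lost with edgeR (0.0729), TMM factors (0.355) and the low-count filter (0.0507). *Daxx* (mm9 chr17:34046359-34052534, plus strand), its partner, had 4061 and 4259 normalized counts in WT and 4835 and 4630 in KO-labelled replicates. The groups did not overlap and replicates were close. The log2 fold change was 0.19 ± 0.08 (SE; 95% interval 0.03 to 0.34), just short of the threshold (DESeq2 adjusted p = 0.0592).

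The median fold change differed between chromosomes, which bears on several members, and was taken over genes whose mean normalized count reached 50. It was -0.24 on chromosome 16 (*Chaf1b*), -0.14 on chromosome 17 (*Chaf1a*, *Daxx*) and -0.06 on the X (*Atrx*), and ran from 0.06 to 0.13 on the chromosomes of the other members. When each gene's chromosome median was removed, 4 members were higher: *Setdb1* (log2 fold change 0.44, DESeq2 adjusted p = 9.89e-09), the first *Atf7ip* identifier (0.45, 0.00144), *Daxx* (0.32, 0.000453) and *Atrx* (0.30, 0.00822). By the same rule 12.4% of all genes were higher. *Trim28* (0.16, 0.169), *Mphosph8* (0.19, 0.146) and *Zfp809* (0.27, 0.0704) no longer passed. *Chaf1b* turned from -0.16 to 0.07 (adjusted p = 0.567) and *Chaf1a* came to -0.07 (0.74). The 2 CAF-1 subunits were thus not below their chromosomes by this test, and the H3.3 chaperones stood above theirs. Of the mESC markers, *Dppa5a* (0.15, DESeq2 adjusted p = 0.0834) and *Zfp42* (0.13, 0.255) no longer passed by this setting. *Tcfcp2l1* (0.42, 2.98e-08) still did, and *Esrrb* (0.29, 7.85e-05) and *Klf4* (0.22, 0.0192) now passed as higher. What set the chromosome medians was not tested.

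**Figure D3:**
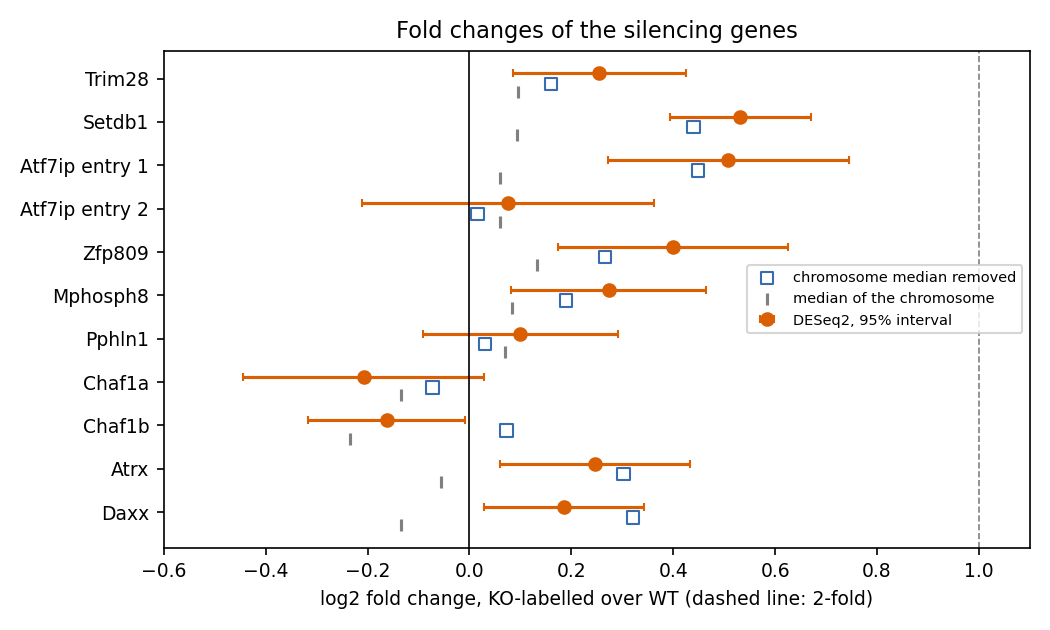
Log2 fold change (KO-labelled over WT) of each entry with its 95% interval (filled), after removal of its chromosome's median (open squares), and that median (grey ticks). No interval reaches the dashed 2-fold line, and *Chaf1b* changes side when its chromosome median is removed.

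Several members also differed between the KO-labelled libraries themselves. KO-labelled replicate 1 exceeded replicate 2 by a log2 ratio of 0.36 for *Atrx*, 0.33 for the first *Atf7ip* identifier, 0.26 for *Mphosph8* and 0.24 for *Trim28*. Over genes whose mean reached 1000 the SD of this ratio was 0.14. For *Setdb1* it was -0.07, for *Daxx* 0.06 and for *Zfp809* 0.08. Without KO-labelled replicate 1, *Setdb1* was the 1 member still called, at a log2 fold change of 0.57, while 12.1% of all genes were higher. Without WT replicate 1 the members called were *Setdb1* and the first *Atf7ip* identifier, with 11.6% of all genes higher. A single library was thus enough to end the calls of the other 5 genes.

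**Figure D4:**
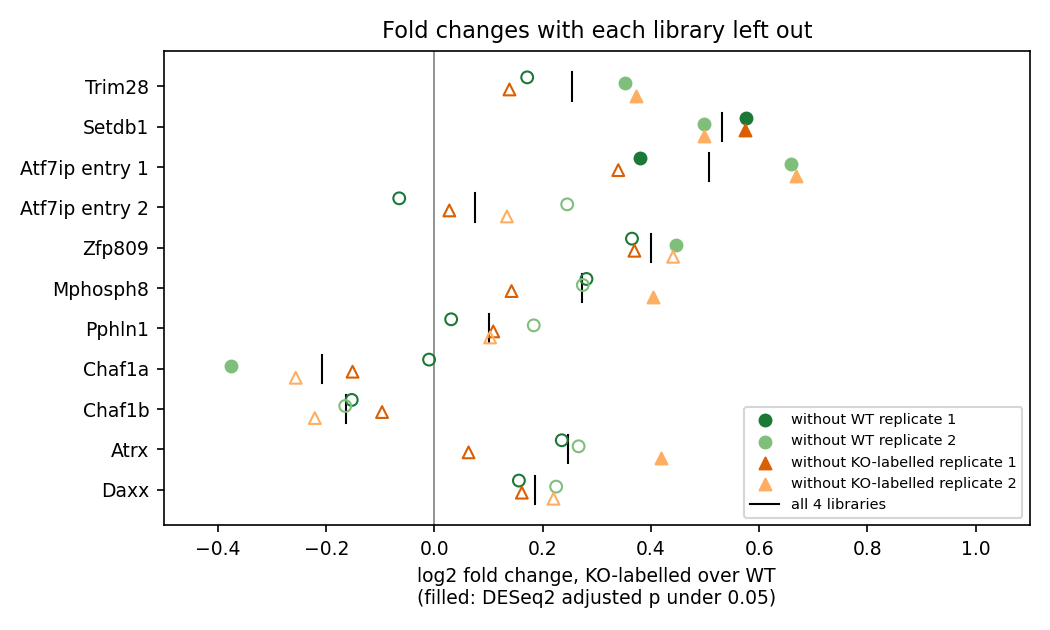
Log2 fold change of each entry with 1 library left out, filled where the DESeq2 adjusted p is under 0.05, beside the value from all 4 libraries (black bar). Points of *Setdb1* stay together and filled, and those of *Atrx*, *Trim28* and *Mphosph8* are open without KO-labelled replicate 1.

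Partner genes of the same pathway, from lists chosen with earlier results of these data known, were read in the same fit. Of 63 genes 62 had an adjusted p, with 21 higher, 10 lower and 31 not past 0.05 (DESeq2). Of all genes tested, 16.4% were higher and 15.8% lower, and of the genes whose mean normalized count reached 1000, the range of most partners, 29.8% and 19.2%. The counts of partners lie near the latter shares. Their median log2 fold change was 0.13. Near-identical copies cover much of the exons of several of the partners named below, which makes their counts uncertain: *Zfp42* (72.3%), *Uhrf1* (63.4%), *Nap1l1* (57.3%), *Cbx3* (53.9%), *Pcna* (49.4%), *H3f3a* (33.0%), *Cbx1* (21.2%) and *Dnmt3b* (20.7%). For *H3f3a* 22.8% and for *Rbbp4* 18% of exonic bases also lie in exons of other genes. The HUSH and MORC list had a median of 0.28, with 3 of 6 higher and none lower (DESeq2; 0 at an unadjusted p under 0.05, 0 by edgeR). These were *Morc2a*, an ATPase that acts with HUSH (log2 fold change 0.34, adjusted p = 2.79e-05), *Morc3*, a related ATPase (0.30, 0.000205), and *BC016423*, which encodes the HUSH-related protein TASOR2 (0.26, 0.0402). *BC016423* lost its call without WT replicate 1 (adjusted p = 0.744), WT replicate 2 (0.455) or KO-labelled replicate 1 (0.648). It was also lost with edgeR (0.0683), TMM factors (0.051), the low-count filter (0.0542), no independent filtering (0.0575) and the replicate block (0.148). *Morc2a* lost its call once its chromosome median was removed (0.0575). *Morc3*, on chromosome 16, came to 0.54 by that setting. *D14Abb1e*, encoding the HUSH scaffold TASOR, had 5322 and 6299 normalized counts in WT and 6002 and 4946 in KO-labelled libraries, which overlapped (log2 fold change -0.09, DESeq2 adjusted p = 0.595).

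Among other H3K9 methylation genes and readers, 3 of 13 were higher and 1 lower, beside 29.8% and 19.2% of genes whose mean reached 1000. *Trim24*, a relative of *Trim28* (0.33, adjusted p = 0.000281), and the HP1 genes *Cbx3* (0.30, 0.00119) and *Cbx1* (0.22, 0.00818) were higher by DESeq2. *Ehmt2*, the H3K9 dimethyltransferase G9a, was lower (-0.36, adjusted p = 3.99e-05). *Setdb1* and *Ehmt2*, both H3K9 methyltransferases, therefore moved in opposite directions. Of 9 DNA-binding factors, *Yy2* was listed at 0 in all libraries. As 100% of its exonic bases lie in exons of other genes, this value does not show that *Yy2* was unexpressed. Of the other 8 factors, 3 were higher and none lower (DESeq2; 0 at an unadjusted p under 0.05, 0 by edgeR). *Zfp819*, a KRAB zinc finger gene like *Zfp809*, had 1924 and 1821 normalized counts in WT and 3194 and 3712 in KO-labelled libraries. Its groups were far apart (log2 fold change 0.88 ± 0.10, SE; DESeq2 adjusted p = 8.73e-17), and the change was thus larger in size than that of *Zfp809*, a difference not tested. *Zfp57*, which protects imprinted loci, and *Zfp42*, a pluripotency factor, were higher by 0.21 (adjusted p = 0.0106) and 0.23 (0.0149) on the log2 scale. Leaving out any 1 library ended the calls of *Zfp57* (adjusted p = 0.0524 to 0.18) and *Zfp42* (0.118 to 0.167). The call of *Trim24* was lost without WT replicate 1 (adjusted p = 0.0566), and that of *Cbx3* without WT replicate 2 (0.0557) or KO-labelled replicate 1 (0.115). That of *Cbx1* was lost without WT replicate 1 (0.188), KO-labelled replicate 1 (0.131) or KO-labelled replicate 2 (0.0725). With chromosome medians removed, *Cbx1* (0.671) and *Zfp42* (0.255) did not pass, while *Ehmt2* came to -0.23 (0.0185) and *Zfp57* to 0.35 (9.17e-06).

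In the list of H3.3 and histone chaperone genes, 3 of 12 were higher and 3 lower, again beside 29.8% and 19.2% of genes at a mean of 1000 or more. *Ubn2*, a subunit of the HIRA chaperone complex that serves H3.3 beside Atrx and Daxx, had 1675 and 1842 normalized counts in WT and 3200 and 2680 in KO-labelled libraries. Both KO-labelled values lay above WT (log2 fold change 0.74 ± 0.11, SE; DESeq2 adjusted p = 2.45e-10). *H3f3a*, an H3.3 gene, and *Pcna*, the clamp that recruits CAF-1, were higher by 0.30 (adjusted p = 9.55e-05) and 0.29 (0.000107) on the log2 scale. *Nap1l1* (-0.51, adjusted p = 1.04e-13), *Rbbp4* (-0.34, 7.31e-07) and *Asf1a* (-0.33, 0.00686) were lower, Rbbp4 being the third subunit of CAF-1 and Asf1a the chaperone that hands it histones. *Asf1a* lies on chromosome 10, whose median was -0.35, and came to 0.02 once that was removed. Its call was also lost without WT replicate 1 (adjusted p = 0.103), WT replicate 2 (0.107) or KO-labelled replicate 2 (0.29). *Nap1l1*, on the same chromosome, came to -0.16 (adjusted p = 0.0467). *Rbbp4* on chromosome 4 came to -0.13 (adjusted p = 0.101), *H3f3a* to 0.20 (0.0183) and *Pcna* to 0.18 (0.0271).

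The SUMO list, whose pathway modifies Trim28 and with it the recruitment of Setdb1, had 4 of 10 genes higher and 1 lower. The shares among genes whose mean reached 1000 were 29.8% higher and 19.2% lower, for this list and the next. The E3 ligase genes *Pias2* (0.48, adjusted p = 4.96e-09) and *Pias1* (0.47, 7.03e-05) and the E1 subunit *Uba2* (0.34, 7.54e-06) were higher by DESeq2. *Sumo3* was lower (-0.43, adjusted p = 1.63e-08), and came to -0.09 (0.417) without its chromosome median. Of 7 genes for deacetylation and H3K4 demethylation, *Rcor2* (0.65, adjusted p = 1.1e-18) and *Hdac3* (0.33, 0.000402) were higher, and *Hdac2* (-0.45, 3.94e-08), *Rcor1* (-0.36, 0.00666) and *Kdm1a* (-0.25, 0.000764) lower. The chromosome of *Rcor2* had a median of 0.38, and *Rcor2* came to 0.27 (adjusted p = 0.00109) without it. None of the 3 lower genes passed once chromosome medians were removed, nor did *Hdac3* (adjusted p = 0.0521). With 1 library left out, calls were lost for *Hdac3* without KO-labelled replicate 2 (0.0611) and for *Kdm1a* without WT replicate 1 (0.0557) or KO-labelled replicate 1 (0.0508). *Rcor1* lost its call without WT replicate 2 (0.304), KO-labelled replicate 1 (0.0571) or KO-labelled replicate 2 (0.176).

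DNA methylation genes held the one partner past the 2-fold threshold, a call that 4.51% of all genes tested received. Among genes whose mean reached 1000 that share was 2.42%. Of the 6 genes of this list, 3 were higher and 2 lower at a DESeq2 adjusted p under 0.05. The shares among genes whose mean reached 1000 were 29.8% and 19.2%. *Dnmt3l*, the cofactor of de novo methylation, had 16448 and 15599 normalized counts in WT and 6470 and 6706 in KO-labelled libraries. The KO-labelled level was far below WT in both (log2 fold change -1.28 ± 0.07, SE; DESeq2 adjusted p = 1.59e-72). With the median of chromosome 10 removed it came to -0.94 (adjusted p = 2.2e-38), short of 2-fold. *Dnmt3b*, a de novo methyltransferase, was lower by a log2 fold change of -0.79 (adjusted p = 3.18e-29). The remodeller *Hells* (0.63, adjusted p = 6.42e-14), *Dnmt1* (0.33, 1.55e-05) and its cofactor *Uhrf1* (0.21, 0.00745), genes of maintenance methylation, were higher by DESeq2. The call of *Uhrf1* was lost without WT replicate 2 (adjusted p = 0.191), KO-labelled replicate 1 (0.0594) or KO-labelled replicate 2 (0.14). With chromosome medians removed, *Hells* on chromosome 19 came to 0.25 (adjusted p = 0.0091), *Dnmt1* to 0.19 (0.0208) and *Uhrf1* to 0.35 (3.53e-06). *Dnmt3a*, the other de novo methyltransferase, did not pass (-0.06, adjusted p = 0.599), and by that setting it was higher (0.26, 0.00102). The de novo genes thus did not move together.

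**Figure D5:**
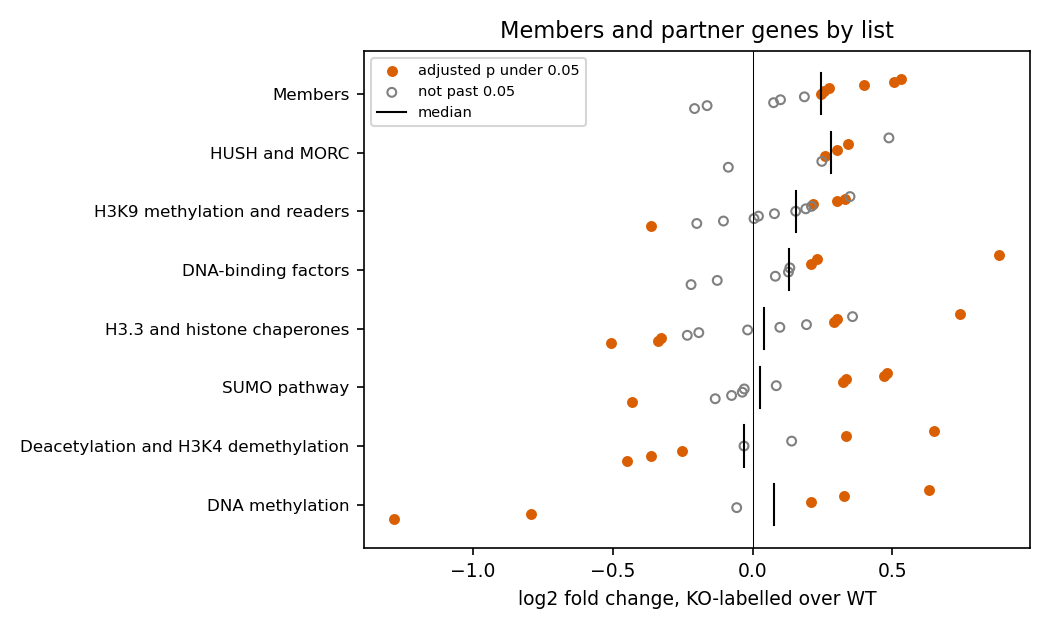
Log2 fold change (KO-labelled over WT) of the 11 member entries and of 62 partner genes by list, filled where the DESeq2 adjusted p is under 0.05, with the median of each list as a bar. The lowest point is *Dnmt3l* at -1.28, and the highest is *Zfp819* at 0.88.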

How the data were processed

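Per the labels and the study's methods, RNA libraries were stranded and depleted of ribosomal RNA, and paired reads were mapped to mm9 with STAR. With featureCounts the authors counted reads over GENCODE vM1 genes, and deposited these raw counts without normalization. Versions, the strand setting and the treatment of multiply mapped reads are not given in the sources used here, and reads, which carry no molecular identifiers, need not be separate molecules. The instrument is a NextSeq in the labels and a HiSeq in the methods.

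Counts of all 37310 genes were fitted with DESeq2 (version 1.42.0, run under R 4.3.3; Wald test, group alone, Benjamini-Hochberg adjustment over 17710 genes). Positive log2 fold changes are higher in KO-labelled libraries. Stretches of 75 bases with another genomic match of at most 3 mismatches over at least 70 bases (minimap2 2.31) counted as near-identical copies. Stretches without any alignment were counted with them. Exons shorter than 75 bases were left out, so these shares are of the exonic bases in such stretches. Where a listed symbol had several identifiers, the one with more exonic bases was used, except for *Atf7ip*, given in full. Older symbols were matched by hand, and 4 of the listed symbols (*Zscan4a*, *Tcstv1*, *Tcstv3*, *Sox1*) were not matched. edgeR 4.0.16, TMM and upper-quartile factors, a low-count filter, no independent filtering, a replicate block, chromosome medians removed, each library left out and, for levels, the longest transcript as length were tried. DESeq2 and edgeR were also run on simulated counts, and the outcome is not given here. The members and lists were chosen with earlier results of these data known. Named partners were those past the study's threshold and up to 3 per list and direction with the smallest adjusted p under 0.05. *D14Abb1e*, *Yy2* and *Dnmt3a* were named after their values were seen. So were, in the closing section, *Ddx4*, *Mael*, *Taf7l*, *Rpl10l*, *Tdpoz4*, *Zfp352*, *Usp17l5*, *Cdx2*, *Gata4*, *Col1a1*, *Col1a2*, *Col3a1*, *Pdgfrb*, *Lum*, *Ascl2* and *Tubb3*. Gene coordinates are on mm9 and promoter windows on GRCm38.p6, and the builds were not mixed.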

Additional observations from a re-analysis of the deposited data

How the results depend on the processing

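The number of members higher ranged from 1 to 5 across the 4 fits without 1 library, against 6 with all libraries, and the number lower from 0 to 1 (*Chaf1a*). With the replicate number as a block, 2 members were higher (*Setdb1* and *Zfp809*), beside 11.8% of all genes. Partner genes came to 16 higher, against 21, and 9 lower, against 10, with 12.5% of all genes lower. The calls of *Cbx1* (DESeq2 adjusted p = 0.0989), *Zfp57* (0.107), *Zfp42* (0.125), *Uhrf1* (0.0948) and *Rcor1* (0.0601) were among those lost. Same-numbered libraries did not deviate together over all genes (correlation of deviations -0.0177 over 13306 genes). This cannot show whether they shared a culture or a preparation, and the labels do not say. With no minimum fold, *Setdb1* (DESeq2 adjusted p = 1.23e-12) and the first *Atf7ip* identifier (0.000188) passed an adjusted p of 0.001. The share of all genes that passed this rule was not computed. With chromosome medians removed, 5 partner genes were lower against 10, and *Chaf1b* (0.072) and *Asf1a* (0.018) reversed, neither past the threshold. The second *Atf7ip* identifier ranged from -0.065 (without WT replicate 1, a reversal) to 0.245 (without WT replicate 2). Counts of higher members were 5 with edgeR (19.4% of all genes higher), with TMM (15.9%) and with the low-count filter (16.5%), 6 without independent filtering (10.6%) and 7 with upper-quartile factors (19.5%), where *Daxx* passed. The causes were not tested. Per-length levels with the longest transcript placed *Chaf1b* above *Setdb1*. Of the member fold changes, 30 kept their direction and side of the threshold with 1 library left out, 12 lost it and 1 passed it, and 65, 10 and 2 did so under the other settings. At the depth of these libraries, low genes such as those of the two-cell-like list rest on few counts.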

Other observations

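Germline genes that this machinery is reported to hold silent in mESCs were read beside it. Not all were silent in WT here: *Ddx4* had 2388 and 2262 normalized counts in WT replicates 1 and 2. Of 13 germline genes, 5 were higher and 1 lower (DESeq2 adjusted p under 0.05), with a median log2 fold change of 0.02, beside 16.4% higher and 15.8% lower among all genes tested. *Hormad1*, a meiotic chromosome axis gene, had 1286 and 1221 normalized counts in WT and 3515 and 3052 in KO-labelled libraries (log2 fold change 1.39, DESeq2 adjusted p = 2.27e-38), but near-identical copies cover 67.7% of its exonic bases. *Slc25a31*, a germ cell ADP/ATP carrier (1.22, adjusted p = 3.19e-06), and *Sycp1*, of the synaptonemal complex (1.03, 1.87e-09), also passed the 2-fold threshold. Of the 17710 genes tested, 4.51% received that call, 241 of them higher. *Slc25a31* missed an adjusted p of 0.001 without WT replicate 1 (0.00496), KO-labelled replicate 1 (0.0159) or KO-labelled replicate 2 (0.00354). *Sycp1* fell short of 2-fold without KO-labelled replicate 1 (0.82, adjusted p = 0.0018) and with chromosome medians removed (0.94). *Mael* (0.71, adjusted p = 4.41e-08) and *Taf7l* (0.92, 5.64e-06) were higher, and *Rpl10l* (-0.69, 3.18e-05) lower, though 98.4% of the exonic bases of *Rpl10l* have copies. With chromosome medians removed, *Rpl10l* came to -0.37 (DESeq2 adjusted p = 0.05). Copies cover 26.9% of the exonic bases of *Sycp1*, and 7 germline genes did not pass.

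Genes of the two-cell-like state, which loss of silencing factors is known to raise, gave 1 call among 8 tested, higher in the KO-labelled libraries, as were 16.4% of all genes tested. That was *Tdpoz4*, with 0 counts in both WT libraries and 24 and 13 counts in the KO-labelled ones. The summed level of the 10 measured genes was 475 and 316 normalized counts in WT and 399 and 272 in KO-labelled libraries, which overlapped. Near-identical copies cover 80.2% of the exonic bases of *Zfp352*, 94.9% of those of *Usp17l5* and 100% of those of the other 8, so the counts of all 10 genes are uncertain.

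Summed markers of other cell types differed between the groups, and their part in the members' values was not tested. Fibroblast markers summed to 211 and 222 normalized counts in WT and 471 and 536 in KO-labelled libraries. Most of this was *Thy1* (log2 fold change 1.59, DESeq2 adjusted p = 1.62e-10), and *Col1a1* and *Pdgfrb* were also above WT in both KO-labelled libraries, at 27.8 and 21.8 against 49.6 and 47.7 for *Col1a1* and 38.4 and 30.5 against 49.6 and 52.4 for *Pdgfrb*, without passing the DESeq2 test (edgeR called 2 markers of this list). *Col1a2*, at 13.3 and 13.1 in WT and 5.22 and 6.26 in KO-labelled libraries, and *Col3a1*, at 10.6 and 10.9 against 8.71 and 9.39, lay below WT in both and did not pass either. *Lum* was at or near 0 in every library. Primitive endoderm markers summed to 530 and 566 in WT and 285 and 246 in KO-labelled libraries, with *Sox7* (-1.45, adjusted p = 4.53e-05) and *Gata4* (-1.14, 0.0014) lower. Trophoblast markers summed to 427 and 437 against 243 and 239, with *Gata3* (-2.73, adjusted p = 4.59e-17) and *Cdx2* (-1.85, 0.00357) lower and *Ascl2* (0.85, 0.0152) higher, the latter at 90.2 and 113 in WT and 179 and 189 in KO-labelled libraries. Neuroectoderm markers summed to 9179 and 9083 against 8168 and 8534, most of it *Tubb3*, which did not pass (adjusted p = 0.67), and *Pax6* was lower (-2.33, adjusted p = 3.25e-23).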
